A study of Homo sapiens with 30 samples.

Results

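The 36 genes described here are autosomal genes of the germline and of meiosis. They were taken from a list of gene names by a rule with no threshold on the measured values, and all 36 were found once each among the 19229 autosomal protein-coding genes of the GENCODE annotation of hg19. H3K27me3 and H3K9me3 were mapped by ChIP-seq in HEK293T, a transformed line derived from human embryonic kidney, 48 h after transfection of antisense oligonucleotides (ASOs), which lead to cleavage of the RNA they pair with. For H3K27me3 the cells received a negative control ASO (NC) or an ASO against the lncRNA LINC00641 or SETD5-AS1, and for H3K9me3 they received NC or an ASO against LINC00662. Each of these 5 groups had 3 ChIP and 3 input samples (30 samples in all), but the replicates were merged before peaks were called, so that each group is 1 peak list with no replicate error and no p-value between conditions can be given. The knockdown lists are written here as ΔLINC00641, ΔSETD5-AS1 and ΔLINC00662, and all cells were of 1 line with a transfected ASO, the control cells included.

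Germ cells use proteins that somatic cells do not need. The piRNA pathway, housed in germ granules, cuts transposon RNA and directs the silencing of transposons. In meiosis, homologous chromosomes are held on a protein axis by a dedicated cohesin, joined by the synaptonemal complex and recombined at programmed DNA breaks. In somatic cells such genes are usually kept silent, which at many of them is known to involve DNA methylation of a CpG-rich promoter, a Polycomb complex that reads the E-box CACGTG or the E2F site GCGGGA, or H3K9 methylation. H3K27me3 is the mark of Polycomb repressive complexes and H3K9me3 that of heterochromatin bound by HP1. RNA levels were not analysed here, so the silence of the 36 genes in these cells was not checked.

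The lists held 102921 peaks (H3K27me3 NC), 86099 (ΔLINC00641), 98401 (ΔSETD5-AS1), 84170 (H3K9me3 NC) and 60273 (ΔLINC00662). A promoter peak is a peak that overlaps the 1 kb on either side of the start of the gene's representative transcript, and a span peak is one that overlaps the gene or its 5 kb on either side. Peak strength is given as the fold over local input at the summit, as −log10 of the q-value, and as the number of ChIP fragments over the summit, which was recovered from the other columns. The 95% exact Poisson intervals of fragments and Wilson intervals of shares of genes cover counting error only, and the former do not allow for the choice of each summit as a local maximum. Depth differed between lists: the genome-wide level against which weak peaks were judged was 3.85 fragments (H3K27me3 NC), 3.78 (ΔLINC00641), 4.43 (ΔSETD5-AS1), 4.29 (H3K9me3 NC) and 3.50 (ΔLINC00662). As a check of the marks, 62.1% of the 240 zinc finger genes on chromosome 19, known for H3K9me3, had an H3K9me3 promoter peak in NC. None of the 39 HOX genes, classical Polycomb genes, had an H3K27me3 promoter peak in any of the 3 H3K27me3 lists. A missing H3K27me3 peak is therefore given only as a missing peak.

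None of the 36 genes carried an H3K27me3 promoter peak, where 6.87% to 7.5% of all genes did, depending on the list. An H3K9me3 promoter peak was carried by 9 in NC and by 7 in ΔLINC00662, against 5.08% and 4.1% of all genes. The 10 genes with an H3K9me3 promoter peak in at least 1 list were the germ granule genes DDX4, TDRD5, TDRD6 and RNF17, the synapsis genes SYCP1 and HORMAD1, the RNA-binding protein genes DAZL, BOLL and ADAD1, and the transcription factor gene SOHLH2. The plot of peaks by gene and list shows these promoter peaks, and a single gene, PIWIL1, with broad H3K27me3 coverage.

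**Figure D1:**
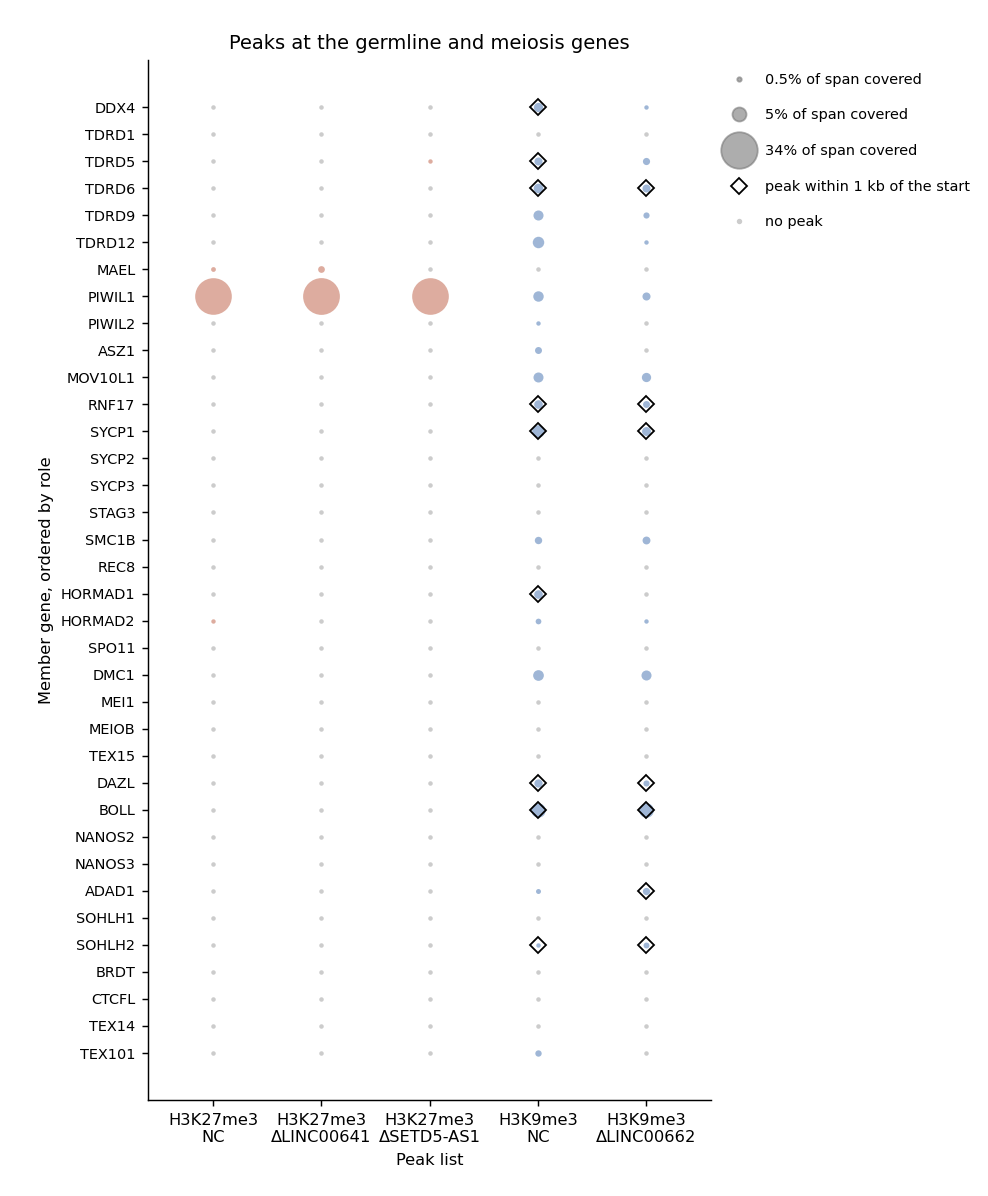
Rows are the 36 genes in order of role and columns are the 5 peak lists. Circle area is proportional to the percent of the gene and its 5-kb flanks under a peak (values below 0.5% are drawn at that size), and a diamond marks a peak within 1 kb of the start. Diamonds occur in the H3K9me3 columns (9 in NC and 7 in ΔLINC00662) and not in the H3K27me3 columns, where PIWIL1 holds nearly all of the covered sequence.

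To show what kind of start had such a peak within 1 kb, the 300 bases before the start are printed for 4 of these genes, in each of which the window overlaps no annotated exon. A promoter peak overlaps the window itself at RNF17 and BOLL in NC and at SYCP1 in ΔLINC00662, and otherwise lies beside it, as at DAZL in both lists. The windows (hg19, read on the strand of the gene) are chr13:25338007-25338306 on the plus strand, chr1:115397184-115397483 on the plus strand, chr3:16646931-16647230 on the minus strand and chr2:198650044-198650343 on the minus strand. Capitals mark CACGTG or GCGGGA on either strand, the latter then read as TCCCGC.
RNF17: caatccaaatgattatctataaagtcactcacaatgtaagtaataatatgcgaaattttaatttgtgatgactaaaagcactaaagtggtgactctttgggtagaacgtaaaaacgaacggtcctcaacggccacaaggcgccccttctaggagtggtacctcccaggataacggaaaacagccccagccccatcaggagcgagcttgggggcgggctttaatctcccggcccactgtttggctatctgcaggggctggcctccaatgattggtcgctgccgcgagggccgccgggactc
SYCP1: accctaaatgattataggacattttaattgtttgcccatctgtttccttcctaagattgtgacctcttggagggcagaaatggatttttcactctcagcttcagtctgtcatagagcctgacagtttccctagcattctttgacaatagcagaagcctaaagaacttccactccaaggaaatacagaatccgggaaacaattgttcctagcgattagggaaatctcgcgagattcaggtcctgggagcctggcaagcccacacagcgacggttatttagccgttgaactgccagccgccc
DAZL: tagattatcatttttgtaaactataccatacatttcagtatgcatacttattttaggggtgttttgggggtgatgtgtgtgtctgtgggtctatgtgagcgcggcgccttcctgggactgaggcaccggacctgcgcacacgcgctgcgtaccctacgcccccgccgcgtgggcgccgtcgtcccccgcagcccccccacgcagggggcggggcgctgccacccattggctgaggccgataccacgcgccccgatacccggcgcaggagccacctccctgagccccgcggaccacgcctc
BOLL: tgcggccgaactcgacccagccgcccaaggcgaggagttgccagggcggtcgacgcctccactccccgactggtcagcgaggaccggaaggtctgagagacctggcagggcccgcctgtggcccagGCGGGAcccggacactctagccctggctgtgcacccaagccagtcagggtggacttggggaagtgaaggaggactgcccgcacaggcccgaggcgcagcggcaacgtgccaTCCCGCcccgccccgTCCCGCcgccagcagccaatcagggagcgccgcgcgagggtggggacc
BOLL and DAZL had 28 CpG dinucleotides each in this window, RNF17 had 15 and SYCP1 8. BOLL held GCGGGA at 3 places, and the windows of RNF17, SYCP1 and DAZL held neither motif.

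The first question is how often the 2 marks were found at the starts of these genes in control cells. In H3K27me3 NC, 0 of 36 genes had a promoter peak (Wilson interval up to 9.64%), against 7.09% of all autosomal protein-coding genes. The background in ΔLINC00641 was 7.5% and in ΔSETD5-AS1 6.87%, again with 0 of 36. Each of these backgrounds lies inside the interval, so the germline genes could not be told apart from other genes in H3K27me3 at promoters. In H3K9me3 NC, 9 of 36 genes had a promoter peak (25%, interval 13.8 to 41.1%), against 5.08% of all genes. In ΔLINC00662 it was 7 of 36 (19.4%, interval 9.75 to 35.0%) against 4.1%. In both H3K9me3 lists the lower bound lay above the background. The 2 lists share 6 of these genes, and the intervals cover counting error only. The members and rules were chosen with earlier results of these data known, so the intervals are no test.

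**Figure D2:**
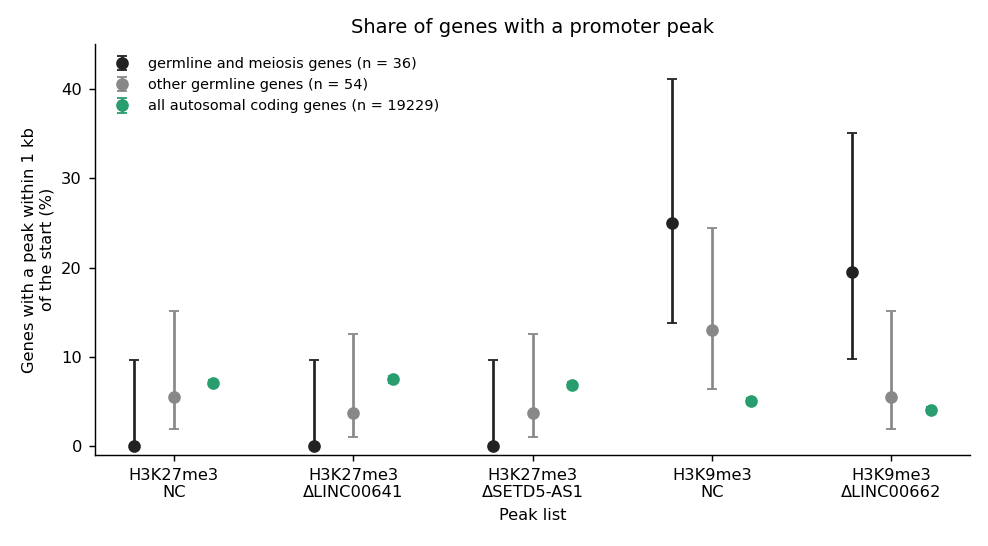
The y axis gives the percent of genes with a peak within 1 kb of the start and the x axis the 5 peak lists. Points are the 36 germline and meiosis genes, the 54 other germline genes and the 19229 autosomal coding genes, and bars are 95% Wilson intervals for counting error. The 36 genes stand at 0 in H3K27me3 and at 25% and 19.4% in H3K9me3.

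The share with an H3K9me3 promoter peak was also above that of all genes among strong peaks. With −log10 q of at least 5, 4 genes kept an H3K9me3 promoter peak in NC (TDRD6, SYCP1, HORMAD1 and BOLL; 11.1% against 2.69% of all genes) and 3 in ΔLINC00662 (DAZL, BOLL and SOHLH2; 8.33% against 1.63%). Only BOLL did so in both. The other germline genes were at 7 of 54 in NC (13.0%, interval 6.42 to 24.4%) and at 3 of 54 in ΔLINC00662 (5.56%, interval 1.91 to 15.1%), and the latter interval includes the background. Their H3K9me3 promoter peaks in NC were at YTHDC2, DDX25, TOPAZ1, M1AP, PRDM14, SYCE1 and PRDM9.

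Most H3K9me3 peaks of the 36 genes lay in introns, 50 of 62 in NC and 27 of 38 in ΔLINC00662, with 10 and 8 at promoters. The places of peaks over all genes were not computed, so these counts have no background. Relative to all genes, it was at the starts that peaks were more frequent. In bins of 500 bases within 1 kb of the start, on average 12.5% of the 36 genes had an H3K9me3 peak in NC, against 2.50% of all genes. From 1 to 5 kb downstream the averages were 0.347% of the 36 genes and 2.32% of all genes. In ΔLINC00662 they were 11.1% against 1.96% within 1 kb and 0% against 1.74% from 1 to 5 kb downstream. From 1 to 5 kb upstream the 36 genes were nearer to all genes. The averages there were 2.08% against 2.71% in NC and 2.08% against 1.88% in ΔLINC00662. Over the whole genes with flanks, peaks covered 1.42% of the sequence in NC (1.51% for all genes) and 0.804% in ΔLINC00662 (0.866%). The 36 genes were thus covered about as much as other genes while their starts carried more peaks.

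**Figure D3:**
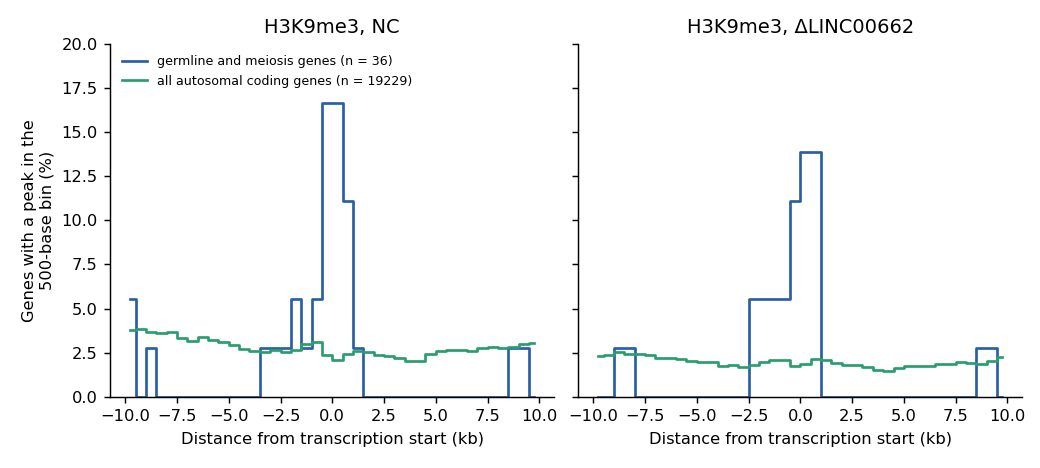
The x axis is the distance from the transcription start in kb, positive in the direction of transcription, and the y axis the percent of genes with an H3K9me3 peak in each bin of 500 bases. The 36 genes rise to 16.7% in NC and 13.9% in ΔLINC00662 next to the start, and all autosomal coding genes stay between 1 and 4% throughout.

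Counts of genes with any span peak need care, as the median length was 56.6 kb for the 36 genes and 27.6 kb for all genes. H3K9me3 span peaks were found at 20 genes in NC (55.6%, background 38.1%) and at 16 in ΔLINC00662 (44.4%, background 32.4%), and H3K27me3 span peaks at 3 in NC (background 14.6%), 2 in ΔLINC00641 (background 14.6%) and 2 in ΔSETD5-AS1 (background 14.9%). No peak of either mark was found in any list at 15 genes: TDRD1, SYCP2, SYCP3, STAG3, REC8, SPO11, MEI1, MEIOB, TEX15, NANOS2, NANOS3, SOHLH1, BRDT, CTCFL and TEX14. At 32 genes no H3K27me3 peak was found in any list. The shares of all genes without a peak across the lists were not computed, so these counts have no background.

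The piRNA pathway and germ granule form the largest group. Of these 12 genes, 4 had an H3K9me3 promoter peak in NC and 2 in ΔLINC00662 (5.08% and 4.1% of all genes). A span peak was found at 10 and 8 of them (38.1% and 32.4% of all genes). H3K9me3 covered 1.86% of their spans in NC and 0.768% in ΔLINC00662, against 1.51% and 0.866% for all genes. TDRD6, a tudor protein of the chromatoid body, had a promoter peak in both lists. The peak covered the start in NC and ended 59 bp from it in ΔLINC00662. In NC it reached 38 fragments (interval 26.9 to 52.2), 2.65-fold over input and −log10 q of 5.07 (chr6:46655113-46655731). In ΔLINC00662 it reached 26 fragments (17.0 to 38.1), 1.92-fold and −log10 q of 1.40 (chr6:46655133-46655563). The intervals overlap, and the local input there was 3.20 and 3.73 times the genome-wide level. A lncRNA, TDRD6-AS1, also starts within 1 kb of the TDRD6 start.

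RNF17, a tudor and RING protein of germ granules, also had a peak in both lists. In NC its promoter peak reached 27 fragments (17.8 to 39.3) at 2.56-fold and −log10 q of 3.37 (chr13:25337861-25338699), and in ΔLINC00662 22 fragments (13.8 to 33.3) at 3.05-fold and −log10 q of 3.69 (chr13:25338480-25338951). The fragments were fewer and the fold higher in ΔLINC00662, and the local input was lower as well, at 6.54 against 9.94 fragments. DDX4, the germ cell RNA helicase known as VASA, had a promoter peak in NC only, with 22 fragments (13.8 to 33.3), 2.30-fold and −log10 q of 2.18 (chr5:55033667-55033978). TDRD5, needed for transposon silencing, had one in NC only with the same 22 fragments, 2.30-fold and −log10 q of 2.18 (chr1:179561302-179561752). Both were among the weakest promoter peaks in NC, and the DDX4 peak also lies in the span of SLC38A9.

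Other genes of the pathway had H3K9me3 in the gene body and not at the start. MOV10L1, an RNA helicase that binds piRNA precursors, held the strongest H3K9me3 peak of all 36 genes in an intron, 32979 bp from its start, with 62 fragments (47.5 to 79.5) and 7.86-fold in NC (chr22:50561183-50561982). In ΔLINC00662 the peak at the same place reached 28 fragments (18.6 to 40.5) and 4.19-fold (chr22:50561221-50561574). These intervals do not overlap, but they are of fragments not scaled for depth. The genome-wide level was 4.29 fragments in NC and 3.50 in ΔLINC00662. The peak was also singled out as the strongest in NC, so whether it differed beyond depth was not tested. Its nearest peak to the start was 1869 bp away in NC and 1404 bp in ΔLINC00662, just outside the promoter window. TDRD9, a helicase and tudor protein of the same pathway, had an intronic peak of 36 fragments (25.2 to 49.8) and 6.45-fold in NC (chr14:104413526-104414176) and of 21 fragments (13.0 to 32.1) and 2.66-fold in ΔLINC00662 (chr14:104413751-104414033). TDRD12 had 6 peaks over 3.37% of its span in NC and 1 peak over 0.234% in ΔLINC00662. PIWIL2 and ASZ1 had 1 H3K9me3 peak each in NC and none in ΔLINC00662, and the ASZ1 peak also lies in the annotated span of CFTR. MAEL and TDRD1 had no H3K9me3 peak.

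PIWIL1, which encodes a PIWI protein that binds piRNAs in spermatocytes and spermatids, was the only member with broad H3K27me3. Its span held 16 peaks over 34.3% of the sequence in NC, 19 over 34.6% in ΔLINC00641 and 16 over 34.3% in ΔSETD5-AS1. The strongest peak had its summit 20329, 20255 and 20287 bp downstream of the start in these lists. It reached 44 fragments (32.0 to 59.1) and 7.09-fold in NC (chr12:130839707-130844066), 34 fragments (23.5 to 47.5) and 7.22-fold in ΔLINC00641 (chr12:130842242-130844165), and 34 fragments and 4.44-fold in ΔSETD5-AS1 (chr12:130840874-130844128). The counting intervals overlap. The share covered differed by less than 1 percentage point between the lists.

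The start of PIWIL1 was outside these peaks, the nearest of which was 1526 bp away in NC, 1428 bp in ΔLINC00641 and 1518 bp in ΔSETD5-AS1. The coverage was that of the neighbourhood: in a window of 200 kb on either side of the gene, H3K27me3 peaks covered 29.0%, 28.3% and 27.2% of the sequence. Within the gene and its 5-kb flanks, H3K9me3 was found at 3 places in NC and 2 in ΔLINC00662, over 2.79% and 1.66% of the sequence. In the window of 200 kb on either side, H3K9me3 peaks covered 5.04% and 3.38%. PIWIL1 made up nearly all of the H3K27me3 at the 36 genes. Their spans were covered at 0.635% (NC), 0.640% (ΔLINC00641) and 0.621% (ΔSETD5-AS1), against 1.57%, 1.29% and 1.39% for all genes, and at 0.0265%, 0.0267% and 0.0109% once PIWIL1 was left out.

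**Figure D4:**
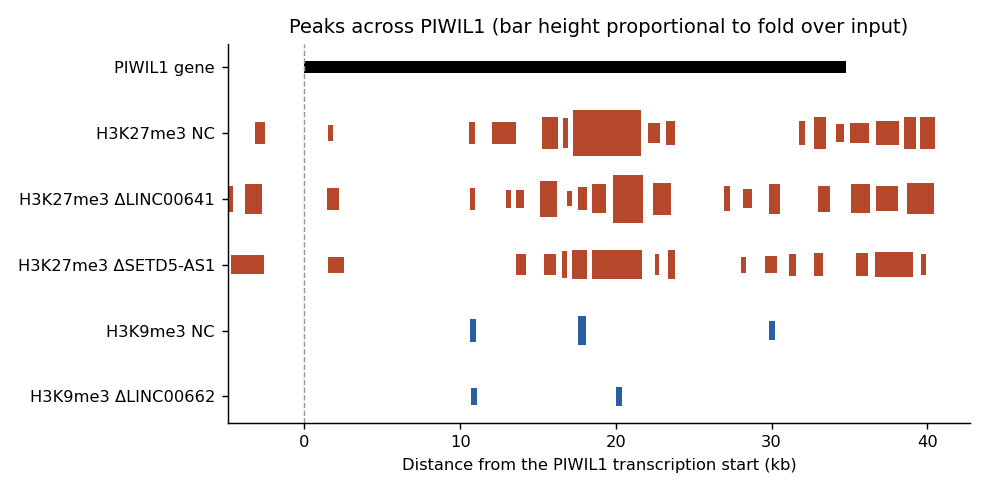
The x axis is the distance from the PIWIL1 transcription start in kb, and each row is a peak list, with the gene drawn in black. Each bar is a peak, its width to scale and its height proportional to the fold over input. The H3K27me3 rows hold 16, 19 and 16 peaks with the strongest near 20 kb downstream of the start, and the H3K9me3 rows hold 3 and 2.

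The remaining H3K27me3 peaks were single and lay in the flanks. MAEL, a nuclear piRNA factor, had 1 upstream peak of 31 fragments and 3.48-fold in NC and of 28 fragments and 2.91-fold in ΔLINC00641, which also lies in the span of ILDR2. HORMAD2 had 1 downstream of the gene in NC with 13 fragments and 2.54-fold. TDRD5 had 1 downstream in ΔSETD5-AS1 with 17 fragments and 2.58-fold.

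Among the 8 genes of the chromosome axis, synaptonemal complex and meiotic cohesin, 2 had an H3K9me3 promoter peak in NC and 1 in ΔLINC00662. The backgrounds over all genes were 5.08% and 4.1%. SYCP1, the transverse filament of the synaptonemal complex, had 31 fragments (21.1 to 44.0) and 3.85-fold near its start in NC, −log10 q of 7.79 (chr1:115397586-115398159) and 28 fragments (18.6 to 40.5) and 2.98-fold in ΔLINC00662, −log10 q of 4.47 (chr1:115397387-115398106). It also had the most H3K9me3 peaks of the 36 genes in NC, 9 over 4.01% of its span, against 6 over 2.01% in ΔLINC00662. HORMAD1, which marks the unsynapsed axis, had 2 promoter peaks in NC and none in ΔLINC00662. The stronger one had its summit 5 bp from the start, with 32 fragments (21.9 to 45.2), 3.53-fold and −log10 q of 7.06 (chr1:150693242-150693554). The weaker one, at chr1:150692377-150692687, had 28 fragments, 1.91-fold and −log10 q of 1.58. Of the 4 genes with a promoter peak of −log10 q of at least 5 in NC, only HORMAD1 had no promoter peak in ΔLINC00662. SMC1B and HORMAD2 had H3K9me3 in the gene body in both lists, and SYCP2, SYCP3, STAG3 and REC8 had no peak.

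None of the 5 recombination genes had a promoter peak of either mark (background in NC 7.09% for H3K27me3 and 5.08% for H3K9me3). DMC1, the meiotic recombinase, had 3 H3K9me3 peaks in its span in each list, over 2.93% and 2.58% of it. SPO11, which makes the programmed breaks, and MEI1, MEIOB and TEX15 had none.

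Of the 5 germ cell RNA regulators, 2 had an H3K9me3 promoter peak in NC and 3 in ΔLINC00662 (backgrounds 5.08% and 4.1%). BOLL, of the DAZ family of RNA-binding proteins, had the strongest promoter peak of the 36 genes, with 42 fragments (30.3 to 56.8), 4.75-fold and −log10 q of 13.7 in NC (chr2:198650197-198650922). In ΔLINC00662 the peak at that place reached 27 fragments (17.8 to 39.3) and 3.39-fold, −log10 q of 5.35 (chr2:198650362-198650937), and a second lay on the other side of the start with 25 fragments and 3.01-fold, −log10 q of 4.06 (chr2:198649271-198649956). BOLL also had the largest share of its span under H3K9me3, 5.30% in NC and 5.49% in ΔLINC00662.

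DAZL, another autosomal member of that family, had a promoter peak of 26 fragments (17.0 to 38.1) and 2.18-fold in NC, −log10 q of 2.25 (chr3:16645813-16646094). In ΔLINC00662 its promoter peak reached 27 fragments (17.8 to 39.3) and 3.39-fold, −log10 q of 5.35 (chr3:16645992-16646891). The fragments were nearly equal, and the input under them was 11.4 in NC and 7.26 in ΔLINC00662. The NC peak was the one closest to the edge of the promoter window, 836 bp from the start. ADAD1, a testis protein with an adenosine deaminase domain, was the only gene with a promoter peak in ΔLINC00662 alone, at 17 fragments (9.90 to 27.2), 2.28-fold and −log10 q of 1.54 (chr4:123300362-123300807). NANOS2 and NANOS3 had no peak of either mark.

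Of the transcription and chromatin factors, SOHLH2, a basic helix-loop-helix factor of spermatogonia and oocytes, had 16 fragments (9.15 to 26.0) and 2.85-fold in NC, −log10 q of 2.63 (chr13:36788854-36789138) and 22 fragments (13.8 to 33.3) and 3.79-fold in ΔLINC00662, −log10 q of 5.25 (chr13:36789025-36789527). It was the promoter peak with the fewest fragments in NC. It lies within the readthrough gene CCDC169-SOHLH2. SOHLH1, BRDT and CTCFL had no peak. Of the other testis genes, TEX101, a surface protein of germ cells, had 1 H3K9me3 peak in NC, 1219 bp from its start, and TEX14 had none.

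**Figure D5:**
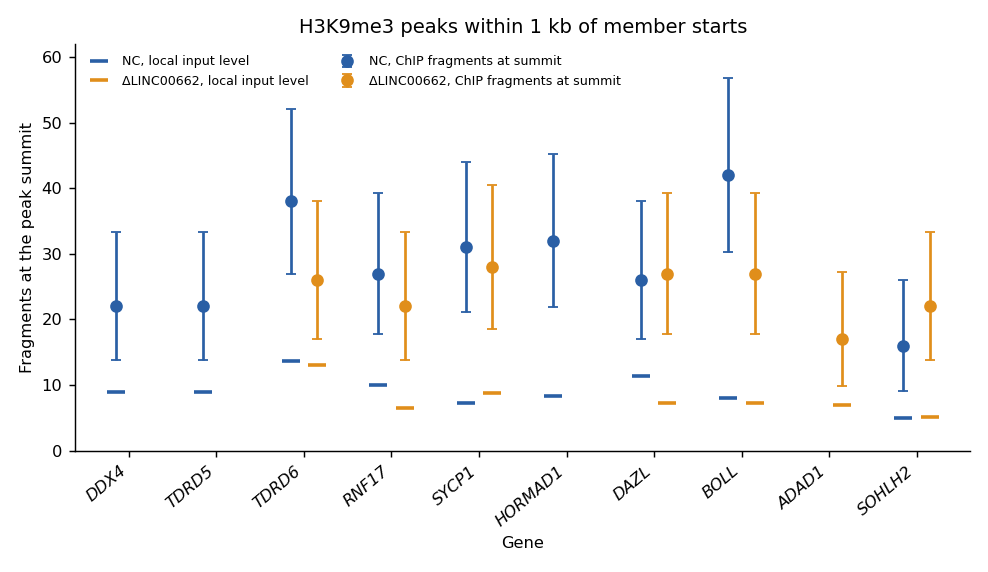
The y axis gives ChIP fragments at the summit of the strongest H3K9me3 peak within 1 kb of the start, with 95% exact Poisson intervals for counting error, for the 10 genes on the x axis. Horizontal marks are the local input level and a missing point means no peak in that list. At the 6 genes with a peak in both lists the intervals of NC and ΔLINC00662 overlap.

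The next question is whether depletion of the lncRNAs changed these marks at the 36 genes. Upon depletion of LINC00662, 6 of the 9 H3K9me3 promoter peaks of NC were found again (TDRD6, RNF17, SYCP1, DAZL, BOLL and SOHLH2), against 56.3% of NC promoter peaks over all genes. The peaks at DDX4, TDRD5 and HORMAD1 were not found, and that at ADAD1 was new (1.31% of genes without one in NC). Weak peaks were found again less often than strong ones over all genes: 42.0% (193 of 459) with −log10 q under 5 and 68.9% (357 of 518) at or above it. For the 36 genes it was 3 of 5 and 3 of 4. The count was 9 against 7 with all peaks, and 5 in NC against 7 in ΔLINC00662 among equal numbers of the strongest peaks. Why the order changed was not tested. The direction of the difference between the lists could therefore not be determined.

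At the level of spans, all 16 genes with H3K9me3 in ΔLINC00662 also had it in NC, that is 16 of 20 against 75.8% over all genes. PIWIL2, ASZ1, HORMAD1 and TEX101 had it in NC alone, and 0 genes were new, against 5.69% of all genes without it in NC. The 26 pairs of overlapping H3K9me3 peaks had a median log2 ratio of fold over input, ΔLINC00662 to NC, of 0.02, with 13 lower and 13 higher. The range was from -1.28 (the intronic TDRD9 peak) to 0.63 (the DAZL promoter peaks, whose summits lay at different places). The counting intervals of fragments overlapped in 25 of the pairs, and in the other, the intronic MOV10L1 peak, NC was higher. These intervals were not scaled for depth. The share of overlapping intervals over all autosomal pairs was not computed, so this count has no background. Over all autosomes the median log2 ratio was 0.03 (25322 pairs). The lower covered share in ΔLINC00662, 0.804% against 1.42%, had its counterpart in all genes, 0.866% against 1.51%. The genome-wide level was lower in ΔLINC00662, and its part in these differences was not tested.

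For H3K27me3 the comparison rests on PIWIL1. In ΔLINC00641, 2 of the 3 genes with a span peak in NC had one (PIWIL1 and MAEL; background 83.7%) and 0 were new (background 2.81%). In ΔSETD5-AS1, 1 of 3 had one (PIWIL1; background 83.1%) and TDRD5 was new (background 3.21%). Among all genes without an NC promoter peak, 1.66% gained one in ΔLINC00641 and 1.3% in ΔSETD5-AS1, and none of the 36 did. The median log2 ratio to NC was 0.03 over 9 pairs in ΔLINC00641, 8 of them in PIWIL1, and -0.16 over 9 pairs in ΔSETD5-AS1, all in PIWIL1. Over all autosomes the medians were 0.01 and -0.08. The 2 comparisons share their NC list.

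The last question is what the starts with H3K9me3 shared. The 36 promoters had a median of 21.5 CpG in 300 bases, close to the 21 of all genes. The 10 genes with an H3K9me3 promoter peak had a median of 20.5 and the 26 without one 21.5, whereas over all genes with an H3K9me3 promoter peak in NC the median was 16. Among the 7588 genes with 25 or more CpG, 3.28% had an H3K9me3 promoter peak in NC, and 3 of the 14 germline genes of that class did (TDRD5, DAZL and BOLL). In ΔLINC00662 it was 2 of 14 against 2.52%. The other classes in NC were at 4 of 15 against 5.89% (15 to 24 CpG), 2 of 5 against 8.22% (5 to 14) and 0 of 2 against 4.64% (0 to 4). The CpG classes were set with the results in view.

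The motifs were no more frequent at starts with H3K9me3 than at those without. CACGTG was found on either strand (it reads the same on both) in 9 of the 36 windows (25%), against 8.81% of all promoters, and GCGGGA in 13 (36.1%) against 34.5%. The motifs can overlap by 1 base at most. Of the 10 genes with an H3K9me3 promoter peak, 2 held CACGTG (DDX4 and TDRD5, both without a promoter peak in ΔLINC00662) and 3 held GCGGGA (DDX4 and BOLL among them). Of the 26 without, it was 7 and 10. Over all genes, an H3K9me3 promoter peak in NC was found at 4.84% of genes with CACGTG and at 5.10% of those without it.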

How the data were processed

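ChIP-seq of H3K27me3 and H3K9me3 was carried out in HEK293T cells, with 3 ChIP and 3 input samples in each of 5 groups, as described in the labels. According to the methods, reads were checked with FastQC (v0.11.8), trimmed with cutadapt (v3.3) and aligned to hg19 with Bowtie2 (v2.4.2), duplicates were removed with GATK, replicates were merged, and peaks were called on merged ChIP against merged input with MACS2 (v2.2.7.1). The authors deposited 1 peak list per group, which holds for each peak the fold enrichment (a ratio over local input with a pseudocount of 1), −log10 p-value and −log10 q-value at the summit. The deposited lists give no counts per sample, so depth per sample is unknown.

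The whole fragments and the local input at each summit were recovered from the fold and the p-value (tolerance 0.001 on −log10 p; 99.86% to 99.999% of peaks per list). The smallest local input is the genome-wide level. Genes were the 19229 autosomal protein-coding genes of GENCODE release 44 lifted to GRCh37 (hg19), with the Ensembl canonical transcript as the start. No peak ended past a chromosome of this build. Promoter windows were 1 kb and flanks 5 kb on either side, and peaks were paired between lists when they overlapped by at least 1 bp. Upstream sequences of 300 bases were read from the hg19 genome for all 36 genes, and 4 of them are printed. Wilson and exact Poisson intervals were at 95%. Python 3.11.15 with numpy 2.4.6, pandas 2.3.3, scipy 1.17.1 and matplotlib 3.10.9 was used, and the recovery, overlap and coverage steps were tested on simulated data.

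All members are accounted for, with position, fold, −log10 q and fragments for each one with a promoter peak. The members, gene lists and rules were chosen with earlier results of these data known. With 1 merged list per group, no test between conditions was made. Alternatives were a q-value cut, windows of 500 bp and 2 kb, any coding start, no flank, 50% overlap and equal numbers of peaks.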

Additional observations from a re-analysis of the deposited data

How the results depend on the processing

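Over 21 results, 97 alternatives were computed, of which 66 stayed within their margin, 28 moved and 3 turned in sign. With windows of 2 kb or the start of any coding transcript, PIWIL1 gave 1 H3K27me3 promoter peak in each of the 3 lists, and 1 of 1 was kept in both knockdowns. With −log10 q of at least 5, H3K9me3 promoter peaks were at 4 genes in NC and 3 in ΔLINC00662, with 1 kept, span peaks at 13 and 9, and coverage at 0.702% and 0.224%. The H3K27me3 span count was then 1 in ΔLINC00641 and in ΔSETD5-AS1, and coverage 0.366% in NC and 0.328% in ΔSETD5-AS1. Without flanks the H3K27me3 span count was 1 in each of the 3 lists. Equal numbers of the strongest peaks left 5 H3K9me3 promoter peaks in NC. Without PIWIL1, added with the results in view, H3K27me3 coverage was 0.0265% (NC), 0.0267% (ΔLINC00641) and 0.0109% (ΔSETD5-AS1). The median log2 ratio of ΔLINC00662 to NC, 0.02, turned to -0.098 with the q-value cut, -0.036 with 50% overlap and -0.081 with equal numbers. The cause was not tested. No paired analysis was possible because replicates were merged before peaks were called, and for the same reason no replicate could be left out. With 16 to 42 fragments at the H3K9me3 promoter peaks of NC, a change of less than about the width of the counting intervals was not detectable at this depth.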

Other observations

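The 25 genes of silencing factors (DNA methyltransferases, H3K9 methyltransferases and subunits of the Polycomb and related complexes) had no H3K27me3 promoter peak in any list and 1 H3K9me3 promoter peak, at HDAC2 in NC, with 25 fragments and 3.41-fold. The H3K9me3 promoter share in NC was thus 4%, against 5.08% of all genes. Of these 25 genes, 10 had an H3K9me3 span peak in NC (40%, background 38.1%) and 11 in ΔLINC00662 (44%, background 32.4%). The Wilson intervals, 23.4 to 59.3% and 26.7 to 62.9%, include these backgrounds.

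Among the 54 other germline genes, ZP4, a protein of the egg coat, had an H3K27me3 promoter peak in all 3 lists, with 29 fragments in NC and in ΔSETD5-AS1 and 34 in ΔLINC00641. LIN28A and RAD21L1 had one in NC alone. NOBOX, a homeobox factor of oocytes, had promoter peaks in the 3 knockdown lists and in neither NC list: 12 fragments at 2.37-fold (H3K27me3, ΔLINC00641), 20 at 2.53-fold (H3K27me3, ΔSETD5-AS1) and 23 at 3.18-fold (H3K9me3, ΔLINC00662). It was singled out after its values were seen, and the difference was not tested.

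Span peaks of H3K9me3 were found at 213 of the 240 zinc finger genes of chromosome 19 in NC and at 212 in ΔLINC00662, while coverage was 22.4% and 14.7%. The HOX genes, none of which had an H3K27me3 span peak in NC or ΔLINC00641, had one at 4 of 39 genes in ΔSETD5-AS1 (10.3%, background 14.9%).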
